A study of Homo sapiens with 8 samples.

Results

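Mediator and cohesin were compared peak by peak in 91189 genomic regions of the human lymphoblastoid line GM12878, an established line of B-lymphocyte origin. The regions were made by merging every overlapping peak of 4 ChIP-seq peak lists, 2 for the Mediator subunit MED1 and 2 for the cohesin subunit SMC1A, on chromosomes 1 to 22 and X. With both NIPBL lists of the series added, the same merging gave 92867 regions. All cells were untreated and crosslinked with formaldehyde, and all 6 ChIP libraries were called against one pool of 2 whole cell extract libraries. Each factor has 2 replicates, and since no label states that these were grown separately, their spread may be technical. Within each list, peaks were ranked by the authors' fold enrichment over control and given a percentile, from 0 for the weakest to 100 for the strongest. A merged region takes the percentile of its strongest peak in each list and is missing in a list with no peak there.

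Mediator is the large complex that relays signals from enhancer-bound activators to the RNA polymerase that makes mRNA, and MED1 is the subunit that many activators contact. Cohesin is a ring that holds chromatin in loops, and SMC1A is one of its core subunits. In many cell types the strongest cohesin sites are those where CTCF stops the ring, and weaker cohesin is found at active enhancers and promoters, where Mediator and the cohesin loader NIPBL also occur. The question that the design raises is whether the places that rank high for Mediator also rank high for cohesin.

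The MED1 lists held 18131 and 45046 peaks (replicates 1 and 2) and the SMC1A lists 56510 and 68228. A proxy for sequencing depth, the lowest control estimate recovered from the peak values of a list, was set to 1 for MED1 replicate 1. It was 0.743 to 0.755 in the other 3 libraries, and read counts were not used. The weakest summits held 11 and 8 fragments in the MED1 lists and 8 and 7 in the SMC1A lists. The 80th percentile, used below to call a peak high, lay at a fold enrichment of 5.06 and 7.32 in the MED1 lists and of 18.2 and 18.7 in the SMC1A lists. The 20th percentile, used to call a peak weak, lay at 3.09 and 3.63 for MED1 and at 4.35 and 4.10 for SMC1A. The median MED1 peak, at 3.81 and 4.82, thus stood near the upper bound of the weak SMC1A peaks. The median MED1 peak was 342 and 419 bp wide and the median SMC1A peak 348 and 354 bp. The mean of the 2 MED1 medians exceeded that of the SMC1A medians by 29.5 bp (exact permutation test over the 4 libraries, two-sided, p = 1, smallest possible 0.333), and without MED1 replicate 2 the difference was -9.00 bp.

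MED1 and SMC1A met in about as many regions as MED1 occupied without SMC1A. Any MED1 peak and any SMC1A peak shared 22312 regions, 24.5% of the total. SMC1A was without MED1 in 46664 regions (51.2%), and MED1 was without SMC1A in 22213 (24.4%). Regions found in both replicates of one factor and in neither of the other numbered 35610 for SMC1A and 4000 for MED1. A further 18078 regions were seen in MED1 replicate 2 only, the longer of the MED1 lists. All 4 lists had a peak in 7878 regions, 8.64% of the total. Shared regions were also the widest, with a median of 959 bp for those in all 4 lists against 671 bp for MED1 in both replicates without SMC1A and 388 bp for SMC1A in both without MED1. A merge of 4 overlapping peaks is wider than a single peak by construction.

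Peak rank was shared within a factor and barely shared between factors. Over the 7878 regions found in all 4 lists, Spearman's rho was 0.79 between the MED1 replicates and 0.81 between the SMC1A replicates. Between a MED1 and an SMC1A list it was 0.12 and 0.14 for MED1 replicate 1 (with SMC1A replicates 1 and 2), and 0.11 and 0.15 for MED1 replicate 2. The mean was 0.80 ± 0.013 (SD, n = 2) within a factor and 0.13 ± 0.016 (SD, n = 4) between factors, a difference of 0.67. Both within-factor values lay above all between-factor values. With 4 libraries there are 3 ways of forming pairs, so the one-sided exact permutation test gave p = 0.333, the smallest it can give.

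**Figure D1:**
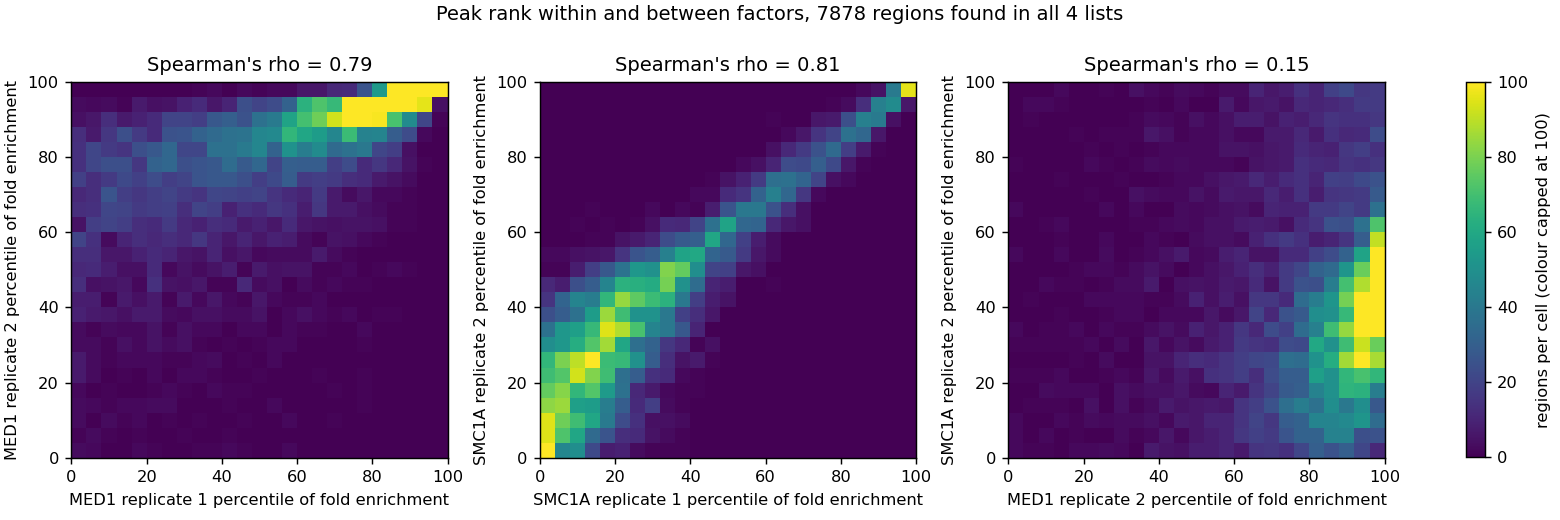
Percentile of fold enrichment in one list against another for the 7878 regions found in all 4 lists. Colour gives the number of regions per grid square, capped at 100. Regions rise together in the replicate panels (rho 0.79 and 0.81), while in the panel of MED1 replicate 2 against SMC1A replicate 2 (rho 0.15) most regions gather at high MED1 and at low or middle SMC1A percentiles.

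All 4 lists share the same control, and the control estimates at the summits were themselves correlated between factors (rho 0.71 to 0.73). Ranked by the fragment pileup at the summit, which leaves the control out, the between-factor rho was 0.25 to 0.27, and the within-factor rho 0.87 and 0.88. These correlations run across regions of the same libraries and carry no p-value. Which regions entered mattered for the sign of the weak between-factor values. Taken over every region with a peak in both lists of a pair, rho was 0.14 and 0.24 for MED1 replicate 1 and -0.13 and 0.03 for MED1 replicate 2. With a missing peak set to percentile 0 over all 91189 regions, the between-factor mean was -0.31 and the within-factor mean 0.76.

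At the regions in all 4 lists, MED1 ranked high in its own lists and SMC1A low. The median percentile was 65.3 and 87.5 in the MED1 lists and 22.05 and 37.1 in the SMC1A lists. Both MED1 percentiles lay above both SMC1A percentiles in 5651 of these regions (71.7%). The reverse held in 518 (6.58%), and in 1709 the factors overlapped. A region enters this set only with a peak in MED1 replicate 1, the shortest list. Such a peak lay at 2.85% of the weakest and 98.4% of the strongest 10% of MED1 replicate 2 peaks. The high MED1 replicate 2 ranks and these counts thus follow in part from the choice of regions. Percentiles of lists of unequal length are places within a list and do not compare amounts of protein.

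The stronger a MED1 peak was, the more often an SMC1A peak lay under it, but the SMC1A peaks met stood mostly in the lower part of their lists. In the weakest 10% of MED1 replicate 1, 34.9% of peaks overlapped a peak of SMC1A replicate 1 (95% exact interval 32.7 to 37.1), against 84.7% in the strongest 10% (83.0 to 86.3). In MED1 replicate 2 the shares were 22.9% (21.7 to 24.1) and 76.9% (75.6 to 78.1). The median percentile of the SMC1A peaks met was 15.1 at the weak end and 26.5 at the strong end for MED1 replicate 1. Against SMC1A replicate 2 it was 19.96 and 40.6. MED1 replicate 2 differed at its weak end, where the SMC1A peaks met had a median percentile of 55.9, against 19.0 in the ninth of its 10 classes and 24.8 in the strongest. In SMC1A replicate 2 the peaks met by MED1 replicate 2 had medians of 42.1 at the weak end, 24.0 in the seventh class and 37.4 at the strong end. Stronger MED1 peaks are also wider, with medians of 266 and 807 bp in the weakest and strongest 10% of replicate 1, and no correction was made for width.

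Along the SMC1A lists the relation ran the other way. A peak of MED1 replicate 1 lay at 48.4% of the weakest 10% of SMC1A replicate 1 peaks (47.1 to 49.7), at 3.78% of the ninth class (3.30 to 4.31) and at 4.16% of the strongest 10% (3.66 to 4.72). For MED1 replicate 2 these shares were 81.5% (80.5 to 82.5), 15.4% (14.5 to 16.4) and 21.2% (20.2 to 22.3), with a low of 12.8% in the eighth class. The strongest cohesin peaks thus met MED1 replicate 2 more often than the classes just below them. For MED1 replicate 1 the intervals of the ninth and strongest classes overlapped. These intervals give counting error only, since peaks of a library are not replicates. The SMC1A peaks were also wider, with medians of 404, 447 and 513 bp in the eighth, ninth and strongest classes. The part of width was not tested. In SMC1A replicate 2 the shares that met MED1 replicate 2 were 77.6% at the weak end, 13.4% in the eighth class and 21.4% at the strong end. The MED1 peaks met were strongest part of the way up the SMC1A list. Their median percentile in MED1 replicate 2 was 76.5 at the weak end of SMC1A replicate 1, 85.0 in the fourth class and 46.3 at the strong end.

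**Figure D2:**
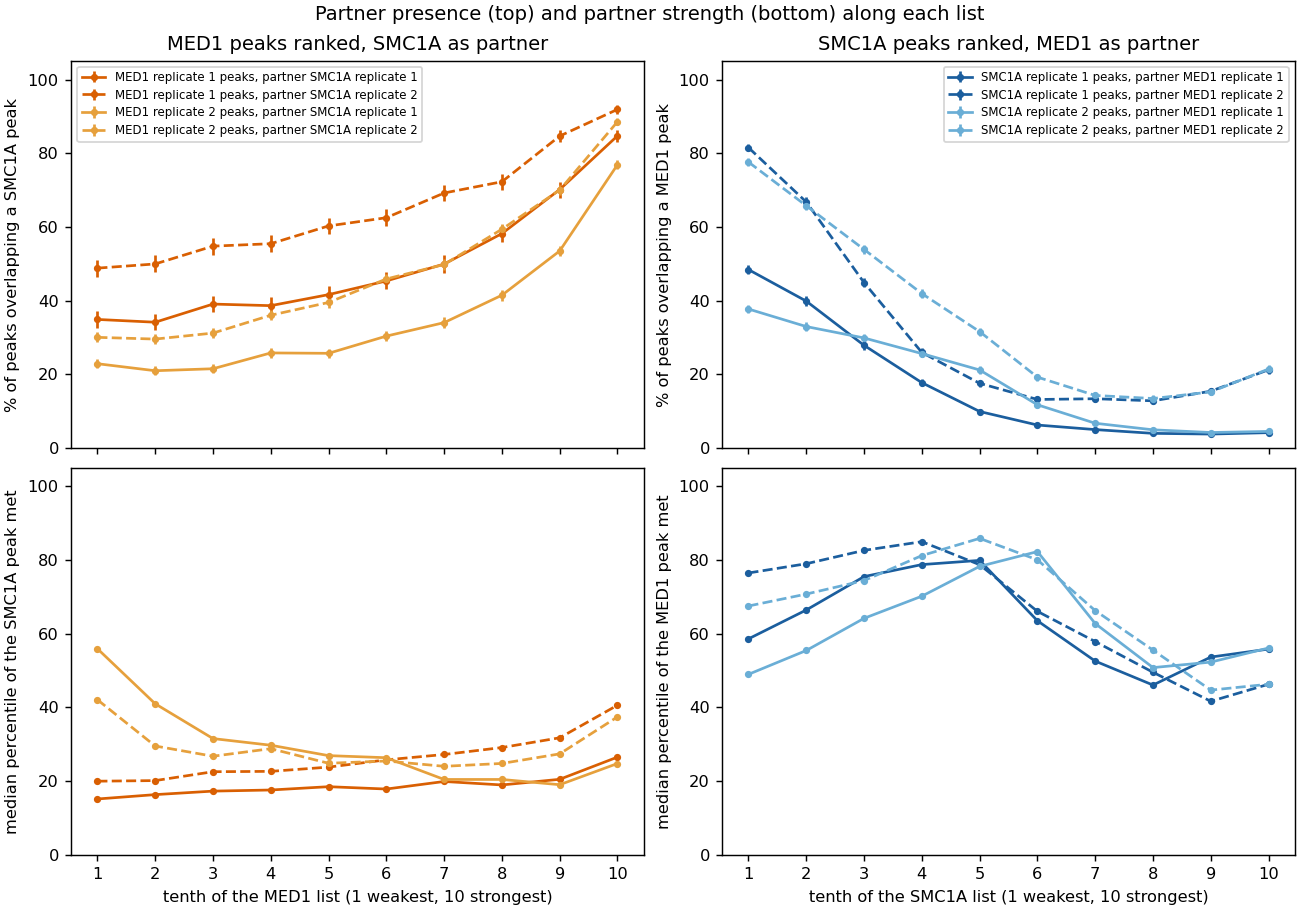
Share of peaks with a partner peak (top, % of peaks, 95% exact intervals) and median percentile of the partner peaks met (bottom) along 10 equal classes of each MED1 list (left) and SMC1A list (right). SMC1A presence is highest at the strongest MED1 peaks (76.9% to 91.9%), whereas MED1 presence is highest at the weakest SMC1A peaks and has a second, smaller high at the strongest ones for MED1 replicate 2 (21.2% and 21.4%).

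Weak MED1 peaks at strong cohesin sites came mostly from MED1 replicate 2. In its weakest 20%, 516 peaks overlapped an SMC1A replicate 1 peak at or above percentile 80, which was 26.0% of those that met any SMC1A replicate 1 peak. In its strongest 20% there were 305 such peaks (5.19%). MED1 replicate 1 had 83 (6.60%) and 84 (2.99%). By definition 20% of all SMC1A replicate 1 peaks stand at or above percentile 80. The 26.0% was thus somewhat above the share over the whole list, and the other shares lay below it. Of the 516 weak peaks, 9 were also found in MED1 replicate 1 (1.74%, 0.801 to 3.29), against 46 of the 639 weak peaks at weak SMC1A (7.20%, 5.32 to 9.49) and 233 of the 7065 with no SMC1A replicate 1 peak (3.30%, 2.89 to 3.74). In the strongest 20% of MED1 replicate 2 these shares were 86.2% (81.8 to 89.9) at strong SMC1A, 93.8% (92.8 to 94.7) at weak SMC1A and 82.2% (80.9 to 83.6) with none. In the fourth of the 5 classes they were 33.8% (29.1 to 38.7), 60.8% (58.5 to 63.2) and 43.5% (42.2 to 44.8), and in the third 10.2% (7.60 to 13.4), 31.8% (29.0 to 34.7) and 17.1% (16.1 to 18.0). Peaks at strong cohesin were found again less often than those at weak cohesin in each of these 4 classes. Against peaks with no SMC1A their intervals overlapped in the weakest and strongest classes and lay lower in the other 2 of the 4. In the weakest class the median width of peaks at strong cohesin was 241 bp, against 303 and 266 bp, and the part of width in these shares was not tested.

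Ranked within the full lists, regions high for one factor and low or empty for the other were more numerous for SMC1A than for MED1, a contrast that depended on list length. SMC1A-high regions, at or above percentile 80 in both SMC1A lists and below 20 or missing in both MED1 lists, numbered 9126, or 10.0% of all regions. They made up most of the 10722 regions high in both SMC1A lists, and 8671 of them had no MED1 peak in either list. MED1-high regions, defined the same way round, numbered 747 (0.819%), of 3178 high in both MED1 lists. Only 253 of the 747 had no SMC1A peak at all, and 494 had a weak one. Regions high in all 4 lists numbered 97 (0.106%). These classes were drawn from the fold enrichments, so their sizes and levels are descriptions with no test. Single libraries set the MED1 counts: without MED1 replicate 1 there were 3644 MED1-high regions and 306 high in the other 3 lists, without SMC1A replicate 2 there were 1551 MED1-high regions, and with any one library left out the SMC1A-high count was 9138 to 11690. With each list cut to the same number of top peaks, there were 2484 MED1-high and 2695 SMC1A-high regions and 20 high in all 4, so the counts of the factors were then close.

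The classes differed in shape and in neighbourhood. MED1-high regions had a median width of 1152 bp and 19.1% were wider than 2000 bp, against 535 bp for SMC1A-high regions, of which 1 was wider than that. Regions high in all 4 lists were the widest, at 2227 bp, and 53.6% were wider than 2000 bp, which gives more room for several peaks to merge. At SMC1A-high regions the median summit pileup was 123 and 136 fragments in the SMC1A libraries. At MED1-high regions that had an SMC1A peak it was 24 fragments in each of them, with MED1 at 53 and 86. Within 50 kb of a MED1-high region lay a median of 3 other regions found in both MED1 replicates (quartiles 1 and 6), and 16.1% had none. Around SMC1A-high regions the median was 0 and 63.6% had none, against a median of 1 and 45.5% for all merged regions. Regions found in both SMC1A replicates were near both kinds, with medians of 4 and 2, against 3 for all merged regions. Chromosome 19 held 6.16% of MED1-high and 3.35% of SMC1A-high regions, against 3.92% of all regions, and chromosome 6 held 8.30% and 4.77%, against 5.80%.

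Coordinates refer to hg19 and count from 1, and genes were not assigned. The region with the highest lowest percentile over the 4 lists lay on chromosome 11 from 65183647 to 65195228. Its fold enrichments were 11.998 and 22.4 for MED1 and 36.7 and 40.6 for SMC1A, but the strongest MED1 and SMC1A summits inside it were 5732 and 6278 bp apart (replicates 1 and 2). Next came chromosome 14 from 23023410 to 23028569, where MED1 reached 21.6 and 34.2 and SMC1A 35.3 and 39.5, with summits 878 and 874 bp apart. The third was on the same chromosome from 23032420 to 23039904, where MED1 reached 10.9 and 23.5 and SMC1A 34.02 and 37.9, and here the summits were 41 and 19 bp apart. A region high in all 4 lists could thus hold strong peaks of both factors at one spot or at spots kilobases apart.

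The strongest MED1-high regions without any SMC1A peak held some of the strongest MED1 peaks in the data. On chromosome 6 from 27796999 to 27799155, MED1 fold enrichment was 28.6 and 69.2, with 153 and 264 fragments at the summit, and the second value was the highest of the list. On the same chromosome from 26029877 to 26034802 it was 28.3 and 49.7. The other two lay on chromosome 1, from 148241289 to 148242304 (MED1 26.1 and 46.1) and from 145382159 to 145383420 (MED1 25.3 and 51.1). NIPBL replicate 1 had a peak at all 4 and replicate 2 at the first 3, with fold enrichments in NIPBL replicate 1 of 5.94, 3.85, 6.47 and 3.01. An SMC1A peak was missing from both lists at each of them.

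Where all 4 lists had a peak, the widest gaps in rank in favour of MED1 left SMC1A at percentile 6.80 or lower. On chromosome 22 from 43010197 to 43012017, MED1 summits held 248 and 326 fragments (fold enrichment 22.6 and 36.3) and SMC1A summits 21 and 31 (3.31 and 2.74), 705 and 283 bp away. On chromosome 17 from 8076094 to 8077613, MED1 held 254 and 345 fragments and SMC1A 22 and 24, and no NIPBL peak overlapped. Both summits of SMC1A there lay 476 and 496 bp from those of MED1. On chromosome 1 from 16839877 to 16841264, MED1 held 172 and 194 fragments and SMC1A 26 and 30, with summits 29 and 41 bp apart. The fourth, on chromosome 1 from 206289225 to 206291017, had fold enrichments of 6.31 and 21.1 for MED1 against 2.69 and 2.75 for SMC1A.

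The widest gaps in favour of SMC1A were compact. On chromosome 17 from 7754913 to 7755576, SMC1A summits held 201 and 232 fragments (fold enrichment 35.4 and 38.1) and MED1 summits 26 and 27 (2.96 and 3.47), 85 and 80 bp away. On chromosome 19 from 44289191 to 44289927, SMC1A held 172 and 208 fragments and MED1 23 and 22. On chromosome 5 from 1479608 to 1480151, SMC1A held 142 and 138 and MED1 21 and 19, and on chromosome 12 from 131303176 to 131303949, SMC1A held 112 and 122 and MED1 20 and 16. These 4 regions were 544 to 774 bp wide. The strongest SMC1A-high region with no MED1 peak lay on chromosome 16 from 75267511 to 75268709, with SMC1A fold enrichments of 64.2 and 73.1. The next were on chromosome 16 from 19918724 to 19919405 (63.5 and 67.2), on chromosome 9 from 124887212 to 124888061 (60.0 and 64.4) and on chromosome 6 from 108863095 to 108864399 (58.1 and 58.7). Of these last 4, the first had a NIPBL peak in replicate 2 (fold enrichment 5.53) and the others had none in either list.

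NIPBL, which loads cohesin and was not used to define the classes, lay at most MED1-high and at few SMC1A-high regions. NIPBL replicates 1 and 2 overlapped 78.0% (74.9 to 81.0) and 71.1% (67.7 to 74.3) of MED1-high regions, against 10.1% (9.49 to 10.7) and 6.40% (5.91 to 6.92) of SMC1A-high regions. Over all merged regions the shares were 19.1% and 14.5%. Regions high in all 4 lists held NIPBL in 94.8% (88.4 to 98.3) and 92.8% (85.7 to 97.0). Within MED1-high regions, those with a weak SMC1A peak held NIPBL more often, at 87.9% (84.6 to 90.6) and 81.8% (78.1 to 85.1), than those with none, at 58.9% (52.6 to 65.0) and 50.2% (43.9 to 56.5). Within SMC1A-high regions a weak MED1 peak went with 33.4% (29.1 to 37.9) and 25.7% (21.8 to 29.99), against 8.88% (8.29 to 9.50) and 5.39% (4.92 to 5.88) with none. The intervals did not overlap within either NIPBL library, but regions of one cell line are not independent replicates and no test was made. Regions with a weak peak of the other factor were also wider than those with none. Median widths were 1244.5 against 922 bp for MED1-high and 682 against 528 bp for SMC1A-high regions. The part of width in these contrasts was not tested.

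**Figure D3:**
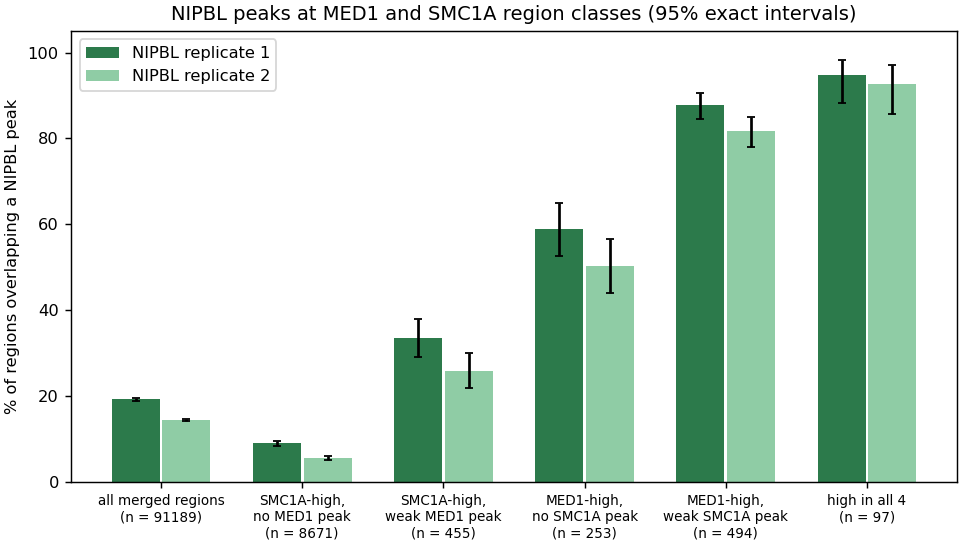
Share of regions (%) that overlap a NIPBL peak, for each NIPBL library, with exact binomial 95% intervals for counting error. Shares run from 5.39% and 8.88% at SMC1A-high regions without MED1 to 92.8% and 94.8% at regions high in all 4 lists.

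Width moved with these shares. In regions up to 500 bp wide, NIPBL replicate 1 overlapped 69.2% of 52 MED1-high regions (54.9 to 81.3) and 1.85% of 3842 SMC1A-high regions (1.45 to 2.33). Between 1000 and 2000 bp the shares were 79.1% of 278 (73.9 to 83.8) and 44.6% of 269 (38.6 to 50.8). The SMC1A-high share was larger in wider regions, and the MED1-high share lay above it in each width class up to 2000 bp. Only 1 SMC1A-high region was wider than that.

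MED1 and SMC1A summits lay close together in shared regions, but not as close as those of replicates. In the 7878 regions with all 4 peaks, the median distance between the strongest summits was 39 bp between the MED1 replicates and 40 bp between the SMC1A replicates. Between factors it was 76 and 70 bp for MED1 replicate 1 (with SMC1A replicates 1 and 2) and 70 and 63 bp for MED1 replicate 2. The mean was 39.5 ± 0.71 bp (SD, n = 2) within and 69.8 ± 5.3 bp (SD, n = 4) between factors, a difference of 30.25 bp (one-sided exact permutation test, p = 0.333, the smallest possible with 4 libraries). Summits at most 50 bp apart made up 58.6% and 56.2% of regions between replicates and 36.9% to 43.1% between factors. More than 500 bp separated 5.00% and 5.56% of replicate summits and 11.2% to 12.6% of those of different factors. Among the 5181 regions with exactly 1 peak in each list, the medians were 37 and 38 bp within and 52 to 61 bp between factors, so the difference of 30.25 bp became 19.0 bp.

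**Figure D4:**
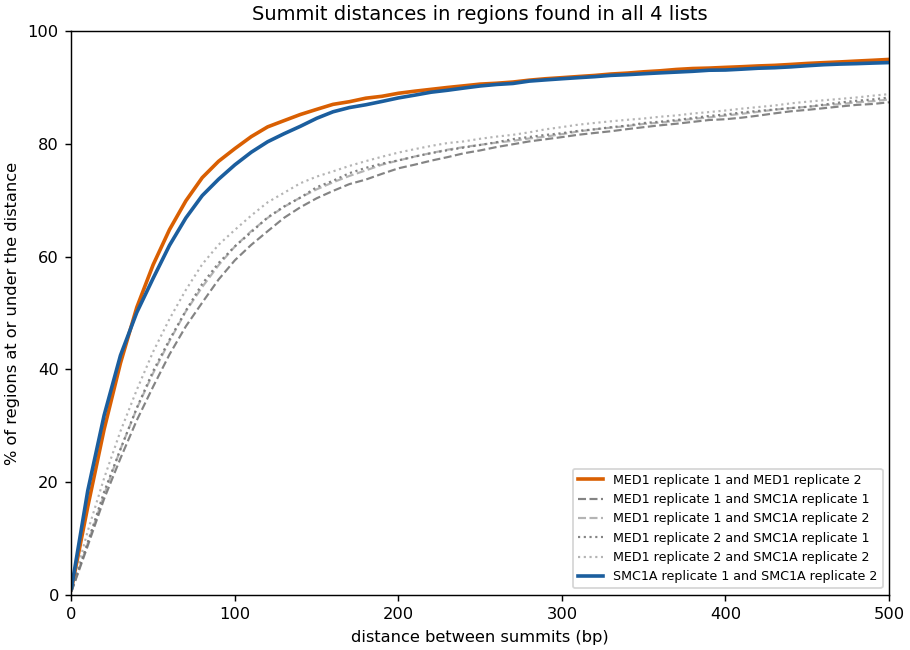
Cumulative share of the 7878 shared regions (%) against the distance in bp between the strongest summits of 2 lists. The curves of the MED1 replicates and of the SMC1A replicates lie above the 4 curves that pair a MED1 with an SMC1A list (56.2% and 58.6% against 36.9% to 43.1% at 50 bp).

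How well the summits coincided differed with cohesin strength and with the MED1 library. For regions with 1 peak in each list of a pair, the median distance between MED1 replicate 2 and SMC1A replicate 1 was 66 bp at the weakest 20% of SMC1A peaks and 38 bp at the strongest. Against SMC1A replicate 2 it was 64 and 39 bp. The classes between those ends were uneven, at 57, 66 and 55 bp against SMC1A replicate 1 and 54, 51 and 60 bp against replicate 2. For MED1 replicate 1 the medians at the weak and strong ends were 64 and 62 bp against SMC1A replicate 1 and 64 and 63 bp against replicate 2. In between, the fourth of the 5 classes stood higher, at 83 bp against SMC1A replicate 1 and 85.5 bp against replicate 2, after 74 and 53 bp in the third. MED1 replicate 1 had 322 and 411 regions at the strong end, where MED1 replicate 2 had 1822 and 2156. The MED1 replicate 2 peaks were also narrower at the strong end. Their median width at the weak and strong ends was 564 and 294 bp for SMC1A replicate 1 and 503 and 303.5 bp for replicate 2. The part of width in these distances was not tested. The SMC1A replicates lay 53 bp apart at the weakest and 10 bp apart at the strongest 20% of replicate 1, so weak SMC1A summits also differed more between SMC1A replicates.

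Most MED1 summits lay kilobases away from the nearest strong SMC1A summit, one at or above percentile 80 of its list. The median distance was 44521 and 36793 bp for MED1 replicate 1 (to SMC1A replicates 1 and 2) and 45570 and 36889 bp for MED1 replicate 2, a mean of 40943 ± 4756 bp (SD, n = 4 pairs of lists). NIPBL summits lay somewhat farther, at 49784.5 and 40780.5 bp for replicate 1 and 46510 and 37833 bp for replicate 2. Such distances depend on how strong summits are spaced, and no distance expected from that spacing was computed. Against SMC1A replicate 1, 1.75% and 3.97% of the summits of MED1 replicates 1 and 2 lay within 100 bp of a strong summit, and 74.0% and 73.6% lay within 100000 bp. Small as they were, the shares within 100 bp stood above the surrounding level. Per kb around 1000 strong summits there were 140 and 791 MED1 summits within 100 bp, against 12.9 and 28.3 at 500 to 1000 bp. The median distance to a weak SMC1A summit, below percentile 20 of the same list, was 5170 and 17343.5 bp, although weak and strong summits are about equally many (11306 and 11312). Distance to strong cohesin differed little between the ends of the MED1 lists. For MED1 replicate 1 it was 45782 bp in the weakest 20% and 42064 bp in the strongest, and for replicate 2 it was 46470 and 43455 bp. The distance to a weak SMC1A summit was 9257 and 2134 bp, and 20819 and 4452 bp, in the same classes. Against SMC1A replicate 2 the gap was smaller for MED1 replicate 1, at 4105 and 3213 bp. What counts as strong sets the absolute value, which was 85363 bp with percentile 90, 15119 bp with percentile 50 and 158713 bp with all lists cut to the same number of top peaks.

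Around strong SMC1A summits MED1 formed a narrow spike on an even level, and around weak ones a broad hill. Within 100 bp of 1000 strong summits of SMC1A replicate 1 there were 140 MED1 replicate 1 summits per kb. There were 9.28 per kb at 200 to 500 bp and between 11.1 and 13.5 per kb in every class from 500 bp to 200000 bp. MED1 replicate 2 gave 791 per kb within 100 bp, 17.1 at 200 to 500 bp and 27.3 to 31.6 from 500 bp outward. Around 1000 weak SMC1A summits, MED1 replicate 1 gave 1342 per kb within 100 bp, 162 at 200 to 500 bp, 70.9 at 2000 to 5000 bp and 16.5 at 100000 to 200000 bp. The spike of MED1 replicate 2 at strong cohesin differed by MED1 strength: its weakest 20% gave 198 per kb within 100 bp and its strongest 20% gave 80.4. At weak summits of SMC1A replicate 1 the order was the reverse, with 168 and 838 per kb, and at those of replicate 2 it was 226 and 525. For MED1 replicate 1 the same classes gave 206 and 356 per kb at weak SMC1A replicate 1 summits. At weak SMC1A replicate 2 summits they gave 217 and 167, so the order there was not reversed. Peaks of one list never overlapped each other.

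**Figure D5:**
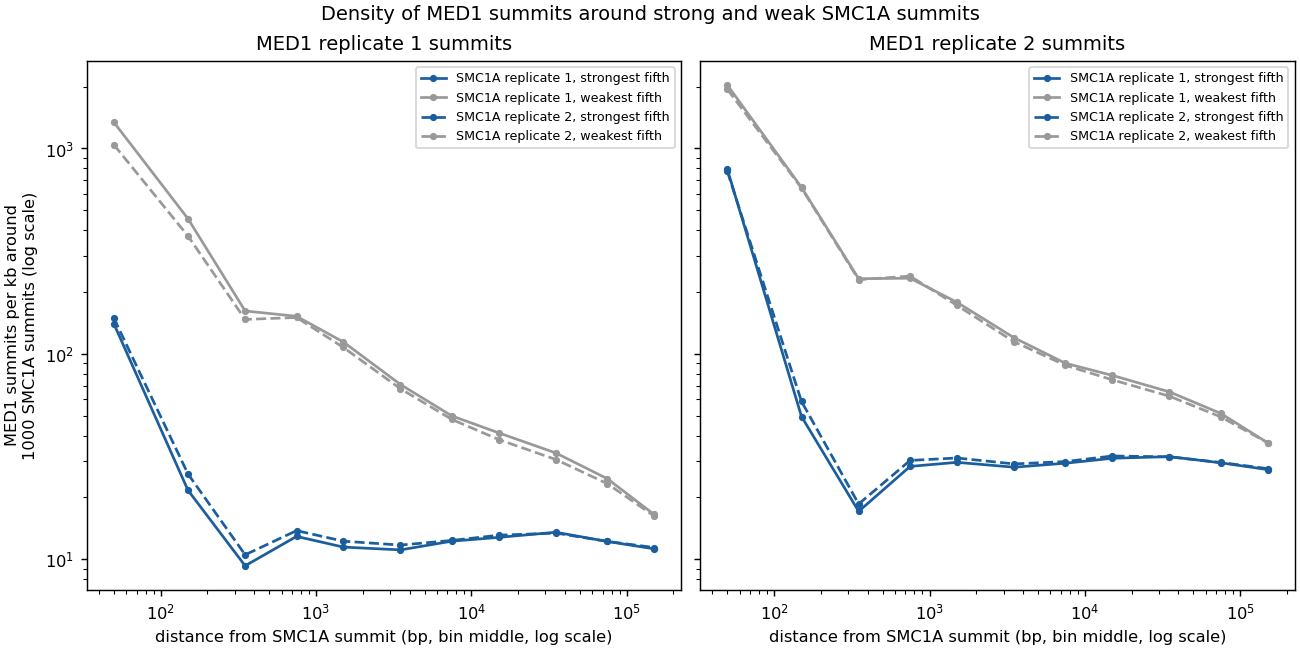
MED1 summits per kb around 1000 SMC1A summits, against distance in bp (both axes logarithmic), for the strongest and weakest 20% of each SMC1A list. Around strong summits the level is flat beyond 500 bp (11.1 to 13.5 per kb for MED1 replicate 1 and SMC1A replicate 1), and around weak summits it stays above that level out to 200000 bp.

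Neighbouring strong SMC1A summits divide each chromosome into stretches of unequal length, and many of them held no MED1 summit. Between the strong summits of SMC1A replicate 1 there were 11289 stretches with a median length of 122050 bp. No MED1 replicate 1 summit lay in 57.8% of them, and 33.98% held none of MED1 replicate 2. For MED1 replicate 1, 764 stretches (6.77%) held 50% of all its summits in stretches, and 1209 (10.7%) did so for replicate 2. Filled stretches were longer, with a median of 179280 bp against 81704 bp for those empty of MED1 replicate 1. Longer stretches have more room for summits, and the part of length in these shares was not tested. Within a stretch, MED1 summits were spread almost evenly from the edges to the middle. Measured as the share of the stretch between a summit and the nearer edge, from 0 at an edge to 0.5 at the middle, the 5 equal classes held 21.9%, 19.8%, 19.7%, 19.2% and 19.3% of MED1 replicate 1 summits. For MED1 replicate 2 they held 24.2% at the edge and 18.7% at the middle.

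The stretch with most MED1 replicate 1 summits ran on chromosome 2 from 7343299 to 8826042. It held 61 and 110 MED1 summits (replicates 1 and 2), 85 and 125 SMC1A summits and 90 and 61 NIPBL summits. The median percentile was 66.0 and 62.7 for its MED1 peaks and 24.2 and 24.9 for its SMC1A peaks. The second, on chromosome 12 from 11381376 to 12480933, held 57 and 74 MED1 summits, and the third, on chromosome 1 from 234635010 to 235247175, held 55 and 68. Their SMC1A peaks had median percentiles of 22.5 and 28.8 and of 18.9 and 27.5. By the way stretches were cut, none held a strong summit of SMC1A replicate 1, and the highest SMC1A replicate 2 percentile was 96.5, 87.3 and 71.3 in the 3 stretches. In each of these stretches SMC1A peaks outnumbered MED1 peaks of the same replicate number, but in a smaller proportion than over the whole lists. The whole lists held 56510 and 68228 SMC1A peaks against 18131 and 45046 MED1 peaks. The stretches were chosen for their number of MED1 replicate 1 summits. The median ranks of their SMC1A peaks were low, which follows in part from how stretches were cut. This reaches SMC1A replicate 2 as well. Of the strongest 10% of its peaks, 98.0% overlapped a replicate 1 peak at or above percentile 80.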

How the data were processed

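The 6 deposited peak lists were used, 1 per ChIP library. Per the submitters' processing notes the tools were Trimmomatic 0.33, BWA 0.7.12 and MACS2 2.1.0, with hg19 as the build and no settings named. Per the labels, cells were crosslinked with 1% formaldehyde, and peaks of each library were called separately, with the 2 extract libraries pooled as input. Fold enrichment, as deposited, is the ratio of summit signal to the local control estimate. Each peak also has deposited −log10 values of p and q, the lowest −log10 q being 1.30. The deposited score, about 10 times −log10 q, was not used, and summit offsets gave positions.

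Peaks off chromosomes 1 to 22 and X (29 to 58 per list of MED1 and SMC1A) were left out. Percentiles are average ranks within a list. An overlap of 1 bp merged peaks. Fold enrichment and p-value together fix the whole-number fragment pileup and the control estimate at a summit, which were solved in 100% of peaks. The step assumes unscaled ChIP libraries, and the lowest control estimate was taken as a proxy for relative depth. Steps were tested on simulated data. Shares have exact Clopper-Pearson 95% intervals for counting error only. Tests over libraries are exact permutation tests. Python 3.11.15, numpy 2.4.6, scipy 1.17.1 and pandas 2.3.3 were used.

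Named regions followed a rule: the 3 with the highest lowest percentile, the 4 strongest of each class without the other factor, the 4 widest rank gaps each way, and the 3 stretches with most MED1 replicate 1 summits. Regions, classes and lists were chosen with earlier results of these data known. The alternatives were ranking by −log10 p, regions with 1 peak per list, other treatments of missing peaks, lists of equal length, other thresholds, and each library left out. Ranking by pileup and a width limit of 2000 bp were added after seeing the data. The matching replicate numbers come with no statement of a shared culture or batch.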

Additional observations from a re-analysis of the deposited data

How the results depend on the processing

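The difference in rank correlation and the difference in summit distance kept their direction under every alternative run, and no alternative could pass a threshold, since 4 or 3 libraries give at least p = 0.333. With 1 library left out, the first ranged from 0.52 to 1.06 and the second from 24.0 to 33.0 bp. The difference in peak width ranged from -9.00 bp (without MED1 replicate 2, where it turned) to 68.0 bp. With a replicate block, that is with same-numbered pairs only, they were 0.67, 30 bp and 29.5 bp. The replicate deviations of the factors correlated at -0.054 over regions. That value cannot tell whether same-numbered samples share a culture or batch, which no label states. Ranking by pileup gave 0.61.

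With 1 library left out, MED1-high regions numbered 811 to 3644, SMC1A-high regions 9138 to 11690 and regions high in all lists 88 to 306. The NIPBL share at MED1-high less that at SMC1A-high regions was 66.3 points as reported (mean of 2 NIPBL libraries) and 48.3 to 75.5 with a library left out. The distance to strong SMC1A was 36841 to 45045.5 bp. Thresholds of 90 and 10 gave 132, 4079 and 18 regions (MED1-high, SMC1A-high, all 4) and 54.7 points, and thresholds of 75 and 25 gave 1367 MED1-high regions and 148 in all 4. Lists of equal length gave 2484, 2695 and 20 regions, 75.3 points and 158713 bp. That setting shortens MED1 replicate 2 as well as both SMC1A lists, and their parts were not separated. Regions with 1 peak per list gave 31 in all 4 and 63.4 points, and regions up to 2000 bp gave 45 and 63.2. Ranking by −log10 p gave 62.5 points and 34815 bp. Strong peaks at percentile 90, at 50 and in both SMC1A lists gave 85363, 15119 and 46794 bp. For the 16 named regions chosen for a gap between the factors, the mean MED1 less the mean SMC1A percentile kept its sign in all 80 alternative values (ranking by −log10 p or 1 library left out). For the 3 high in all 4 lists, where that difference is near 0, it changed sign in 3 of 15 values. On chromosome 11 it went from 0.17 to -0.74 (ranking by −log10 p) and -0.060 (without MED1 replicate 2), and in the region on chromosome 14 starting at 23032420 from 0.66 to -0.72 (ranking by −log10 p). Binding below 7 to 11 fragments at a summit could not be detected.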
